A study of Mus musculus and Homo sapiens with 180 samples.

Results

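MOLM13 cells that had been edited at both PCGF1 and BCOR were compared with control MOLM13 cells in the vehicle DMSO, using 6 deeply sequenced 3′ RNA-seq libraries of the 180 samples of the series. The 3 knockout libraries (PCGF1/BCOR KO, DMSO) and the 3 control libraries (Control, DMSO) were chosen by their labels and not by a measured value. They form the vehicle arm of a washout experiment, are labelled 96 h, and are the deepest libraries of that experiment, with 21732246 to 47065530 counts each against 491592 to 10139313 in its 18 libraries from cells given the Menin inhibitor VTP50469. MOLM13 is a human acute myeloid leukaemia line that carries the MLL-AF9 fusion of KMT2A and MLLT3. Cells of both arms expressed Cas9 and a puromycin-selected single guide RNA (sgRNA) vector. The study's general methods describe a control guide directed at a site taken to be safe to cut. For the MOLM13 cells placed in mice the study describes the control guide as non-targeting. Which of these the control libraries used is not given in the sources used here. The edited cells were polyclonal populations, so cells with different alleles were measured together. In bulk RNA, fewer cells of a kind and less RNA per cell cannot be told apart.

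PCGF1 and BCOR are subunits of PRC1.1, a non-canonical form of Polycomb repressive complex 1. Polycomb complexes keep developmental genes silent. PRC1.1 is brought to unmethylated CpG-rich promoters through KDM2B, which binds unmethylated CpG, and its RING1 or RNF2 subunit places ubiquitin on histone H2A (H2AK119ub). BCOR, or the related BCORL1, joins PCGF1 to KDM2B. MLL fusion proteins keep genes such as MEIS1 and the HOXA cluster active. The comparison asks what the loss of PRC1.1 changed before any inhibitor was added.

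The guides listed by the study for the targeted genes are shown because they mark where each gene was cut. They are written 5′ to 3′ without the cloning overhang.
PCGF1 guide 1: ggggcagtacttgctagtt
PCGF1 guide 2: gaggtacgccatctccgg
BCOR guide 1: gggtcaatccttacatgg
BCOR guide 2: gcgcaatggacgagaggc
Each matched in full at a single place within its own gene in hg38, next to an NGG motif. The rest of the genome was not searched. PCGF1 guide 1 matched chr2:74506835-74506853 on the plus strand, in exon 3 of 9, and guide 2 matched chr2:74505591-74505608 on the minus strand, in exon 7. BCOR guide 1 matched chrX:40074757-40074774 on the minus strand and guide 2 matched chrX:40074498-40074515 on the plus strand, both in exon 4 of 15. All cut positions lay in coding sequence of the GENCODE v44 canonical transcripts. Which guides were joined in the double knockout is not given in the sources used here.

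Neither targeted gene passed the test. BCOR was at 12.7, 16.6 and 13.0 CPM (counts scaled to the library total) in control replicates 1 to 3 and at 16.6, 17.7 and 17.2 CPM in knockout replicates 1 to 3 (log2 fold change 0.28, SE 0.17, adjusted p = 0.521, edgeR quasi-likelihood test with Benjamini-Hochberg adjustment). PCGF1 was near the limit of detection, at 0.267, 0.768 and 0.277 CPM in control cells and 0.419, 0.473 and 0.0805 CPM in knockout libraries. Its log2 fold change was -0.42 (SE 0.90, adjusted p = 0.957, edgeR quasi-likelihood test, minimum of 0.25 CPM). With 35 control and 37 knockout counts, a fall of PCGF1 could be neither shown nor excluded. Reads from the 3′ end of a transcript do not read the guide sites, so these values do not check the editing. The cell line did match its markers. CD33 (132 and 109 CPM on average in control and knockout cells), FLT3 (75.1 and 76.1 CPM) and MEIS1 (20.5 and 19.3 CPM) were present, and the erythroid genes GATA1 and HBZ did not reach 0.25 CPM in 2 libraries.

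Most genes that passed in a fit without the replicate numbers rose. A minimum of 2 CPM in at least 2 libraries left 9935 genes, of which 472 (4.75%) passed an adjusted p of 0.05. Of these, 348 (3.5% of the genes tested) were raised and 124 (1.25%) were lowered in knockout cells. The median log2 fold change was 2.22 for raised genes, -1.63 for lowered genes and -0.0166 over all genes tested. In each of the 472 genes the 3 knockout libraries lay wholly above or wholly below the 3 control libraries, which held for 2177 genes (21.9%) of those tested. Same-numbered libraries of the arms deviated together, and a fit blocked by replicate number called 3574 genes (36%), 1881 raised (18.9%) and 1693 lowered (17%), among them all 472. Raised genes thus made up 73.7% of the calls without the block and 52.6% with it. When each library was left out in turn, 161 of the raised and 40 of the lowered genes passed every time. A further 3369 genes reached only 0.25 CPM in 2 libraries, and of these 47 were raised (1.4%) and 13 lowered (0.386%), or 182 (5.4%) and 95 (2.82%) with the block. In the plot of fold change against level the raised genes reach further from 0 than the lowered genes.

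**Figure D1:**
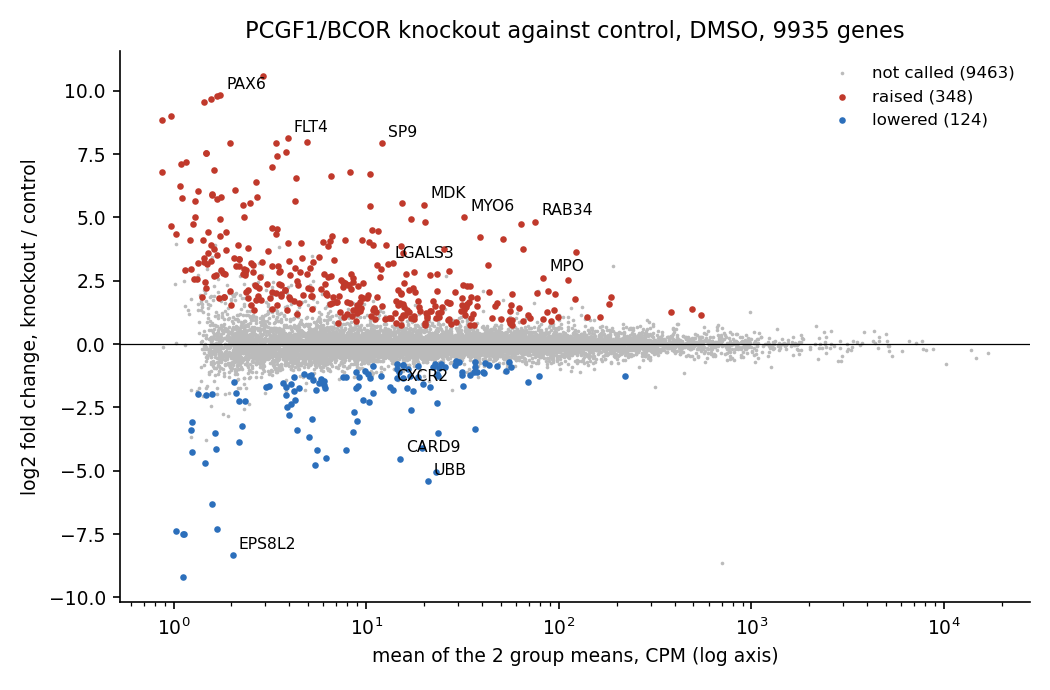
Log2 fold change of PCGF1/BCOR knockout over control (vertical axis) against the mean level in CPM (horizontal log axis), with 1 point per gene. Red points are the 348 raised genes, blue points the 124 lowered genes and grey points the genes that did not pass.

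Among raised genes with at least 10 CPM in knockout cells, the largest rises were in genes that were close to silent in control cells. SP9, a zinc finger transcription factor of the developing forebrain and limb, was at 0.119, 0.121 and 0.0395 CPM in control libraries and at 28.1, 21.2 and 23 CPM in knockout libraries (log2 fold change 7.93, SE 0.34, adjusted p = 0.000187). MDK, a heparin-binding growth factor, rose from 0.890, 0.809 and 0.869 CPM to 50.7, 39 and 27.9 CPM (log2 fold change 5.51, SE 0.29, adjusted p = 0.000366). The groups stood far apart in both genes, and the spread within the knockout libraries was wider for MDK than for SP9. MYO6, an actin motor that moves towards the minus end of filaments, was at 1.25, 1.58 and 3.00 CPM in control cells and 57.6, 53.7 and 76.2 CPM in knockout libraries. RAB34, a GTPase with a part in the assembly of cilia, reached the highest level of these genes, at 4.21, 4.0 and 7.11 CPM in control cells and 109.9, 152.1 and 175.2 CPM in knockout libraries (log2 fold change 4.83, adjusted p = 0.000747). Knockout libraries were above all control libraries in each.

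Others among the 10 largest rises had similar values. C12orf75 was at 0.185 ± 0.159 CPM in control cells and 20.8 ± 4.62 CPM in knockout cells (mean ± SD, n = 3 each). LHFPL6 was at 0.112 ± 0.161 and 13.1 ± 2.58 CPM, ATP6V1C2, a subunit of the proton pump of acidic organelles, at 0.475 ± 0.321 and 20.5 ± 6.32 CPM, and ECI2, an enzyme of fatty acid oxidation, at 1.38 ± 0.707 and 39 ± 6.62 CPM. HBQ1, a theta globin gene, had uneven knockout libraries, at 19.2, 3.84 and 26.0 CPM, all above the 0.0809 to 0.198 CPM of the control libraries. HBB completed the group and is described with the erythroid genes.

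Several genes had 3 or fewer counts in all 3 control libraries together. NRIP1, a corepressor of nuclear receptors, had the highest level of these in knockout cells, at 9.58, 8.68 and 11.2 CPM against 0 to 0.0593 CPM in control libraries. FLT4, the receptor for the lymphatic growth factors VEGFC and VEGFD, was at 6.89, 7.62 and 8.88 CPM against 0 to 0.0404 CPM. H2AJ, a histone H2A variant, was at 8.22, 2.50 and 12.2 CPM, HOXC10 at 8.25, 8.65 and 3.49 CPM, and TIAM1, an activator of the GTPase RAC1, at 6.38, 4.59 and 9.65 CPM. These 5 genes passed the test (adjusted p 0.000591 to 0.00462). Among all raised genes, 22 had 3 or fewer control counts and 124 (35.6%) had a control mean under 1 CPM. A gene that low had to differ between the groups to pass the minimum of 2 CPM, so these shares are a description only.

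**Figure D2:**
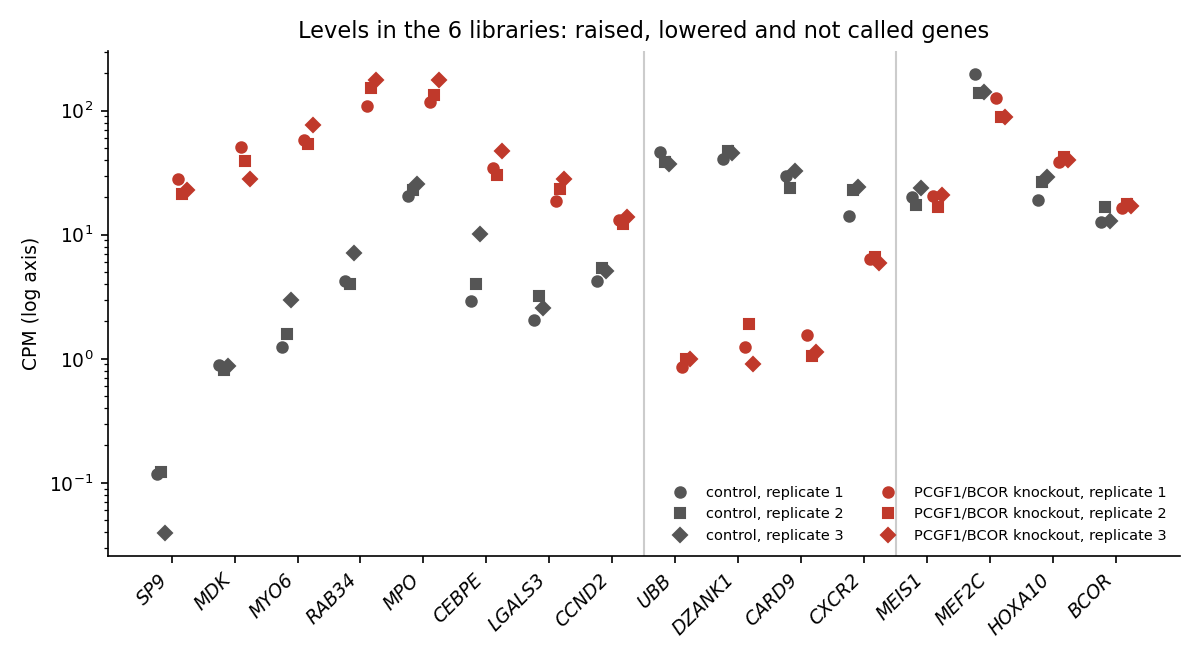
CPM on a log axis for 16 genes in the 6 libraries, with control libraries in grey, knockout libraries in red and the marker shape giving the replicate number. The 8 raised genes on the left and the 4 lowered genes in the middle show groups that stand apart, and the 4 genes on the right did not pass the test without the block.

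Some developmental transcription factors, the class that Polycomb complexes are best known for silencing, rose. Of 161 listed genes, 124 did not reach 0.25 CPM in 2 libraries and were not tested. Of the 23 that reached 2 CPM, 5 rose, none fell and 18 did not pass, where 3.5% of all genes rose and 1.25% fell. With the block 13 rose and 3 fell, where 18.9% of all genes were raised and 17% lowered. Their median log2 fold change was 0.92 against -0.0166 over all genes. Each of the 5 reached 2 CPM in knockout libraries only, so it had to be higher there to be tested, and the count and median are a description only. PAX6, a master regulator of eye development, had no count in any control library and 2.04, 3.23 and 5.18 CPM in knockout libraries, at least 101-fold higher than the 0.0346 CPM that 3 counts over the control group would give. NR2F1, an orphan nuclear receptor, was at 0.267, 0 and 0.198 CPM in control cells and 3.52, 3.73 and 3.49 CPM in knockout libraries (log2 fold change 4.44, adjusted p = 0.0176). HMX3, a homeobox gene of the inner ear, rose from 0.433 ± 0.375 to 3.78 ± 1.37 CPM, and its neighbour HMX2 rose from no count to 1.67 ± 0.351 CPM, at least 48.1-fold. The other two were named after their values were seen. TFAP2A, a factor of neural crest and epidermis, rose from 0.522 to 4.12 CPM on average (log2 fold change 2.97), and TBX3 from 1.33 to 4.4 CPM (1.73).

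Some members of the list were already expressed in control cells. BARX1 was at 47.7, 22.7 and 38.7 CPM in control cells and 151.5, 68.9 and 114.4 CPM in knockout libraries (log2 fold change 1.62, adjusted p = 0.0668 without and 4.41e-11 with the block), and within each replicate number the knockout library was higher. The 3 members lowered with the block were SHOX2, PITX1 and ONECUT2. Of the lowered members PITX1 lies on chromosome 5, where most genes were lower in knockout cells, as described below.

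The promoter of SP9 is shown because this gene went from at most a few counts in a library to several CPM, and because PRC1.1 is brought to CpG-rich DNA. The 250 bases upstream of the canonical start are written 5′ to 3′ in the direction of transcription, with each CpG in capitals.
SP9: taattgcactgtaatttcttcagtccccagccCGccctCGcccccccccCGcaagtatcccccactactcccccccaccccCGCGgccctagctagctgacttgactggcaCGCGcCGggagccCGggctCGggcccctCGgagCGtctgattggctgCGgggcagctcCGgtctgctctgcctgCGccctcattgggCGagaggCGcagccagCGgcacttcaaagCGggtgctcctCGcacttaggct
The SP9 window, chr2:174334704-174334953 on the plus strand of hg38, held 20 CpG and was 68.4% G or C. Over the 9580 tested genes (96.4%) with a start in the annotation, the median was 22 CpG in such a window. It was 25 for the 342 raised genes placed and 17 for the 117 lowered genes. The G and C share had medians of 66%, 72% and 65.6% in the same order. A CpG-rich start, taken as 1000 bases around it with at least 50% G or C and an observed over expected CpG ratio of at least 0.6, was found for 86.9% of all tested genes, 82.2% of raised genes and 65% of lowered genes. At 2 CPM, raised genes thus held slightly more CpG than tested genes in the window and were not more often CpG-rich by this definition. Among genes under 2 CPM, 87.8% of the 41 raised genes placed were CpG-rich, against 58.5% of all tested. Their median was 26 CpG in the window, against 16 for all tested. Of the 10 lowered genes placed there, 50% were CpG-rich. No test was made of these shares.

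Without the block, lowered genes were fewer than raised genes and started from higher levels, with a median of 14.9 CPM in control cells. Among those with at least 10 CPM in control cells and no overlap, the largest fall was in UBB, a polyubiquitin gene, from 46.8, 38.5 and 37.1 CPM to 0.862, 1.0 and 0.992 CPM (log2 fold change -5.42, SE 0.19, adjusted p = 0.00016). UBB belongs to a family with near-identical repeats, so its counts are uncertain. DZANK1, which codes for an ankyrin-repeat protein, fell from 41, 47.4 and 45.4 CPM to 1.26, 1.89 and 0.912 CPM. CARD9, an adaptor that links fungal-sensing receptors of myeloid cells to NF-κB, fell from 29.5, 23.9 and 32.6 CPM to 1.55, 1.06 and 1.13 CPM (log2 fold change -4.52, SE 0.24, adjusted p = 0.000366). In these 3 genes the knockout libraries differed from each other by less than 1 CPM and lay far under every control library.

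IL32, a cytokine gene, was at 36.8 ± 16.5 CPM in control cells and 2.16 ± 0.680 CPM in knockout cells. CAMK1, a calmodulin-dependent kinase, was at 10.5 ± 2.35 and 0.378 ± 0.237 CPM, and TNNI3, the cardiac troponin I gene, at 11.9 ± 5.72 and 0.512 ± 0.351 CPM. PRG2, the eosinophil major basic protein gene, was at 15.3, 13.0 and 3.40 CPM in control libraries and under 1 CPM in each knockout library. GSG1, ZNF185 and IGLL5 made up the 10 largest falls, with log2 fold changes of -4.18, -3.45 and -3.52. Of 6 lowered genes with 3 or fewer counts in knockout cells, 5 were C5orf63, EPS8L2, COL8A2, CGREF1 and the histone gene H2BC9, at 2.24 to 4.05 CPM on average in control cells. C5orf63 had no count in any knockout library, and its control mean of 2.24 CPM was at least 85.3-fold above the 0.0262 CPM that 3 counts over the knockout group would give. H2BC9 belongs to a family of near-identical histone genes, so its counts are uncertain.

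No subunit of PRC1.1 passed without the block. Of the 10 listed, 7 reached 2 CPM, with a median log2 fold change of 0.00416. With the block RNF2, the ubiquitin ligase subunit, rose by 0.32 on the log2 scale and SKP1 fell by 0.42 (adjusted p = 0.0319 and 7.21e-06), and SKP1 lies on chromosome 5. KDM2B was at 32.0 to 33.5 CPM in control cells and 30.1 to 36.5 CPM in knockout libraries, and these ranges overlap. Of other PRC1 subunits, none of 13 passed, and with the block 2 rose, PCGF5 among them. Of 10 PRC2 subunits, which place H3K27me3, none passed, and SUZ12 and AEBP2 fell and RBBP7 rose with the block. Over all genes 4.75% passed without the block, and 18.9% rose and 17% fell with it.

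None of 20 genes kept active by MLL fusions passed without the block. Their median log2 fold change was -0.241, and with the block 3 rose and 9 fell (18.9% and 17% of all genes did). MEIS1, the homeobox cofactor of HOXA9, was at 20.3, 17.2 and 23.9 CPM in control cells and 20.4, 16.9 and 20.8 CPM in knockout libraries, so the groups overlapped (log2 fold change -0.08, SE 0.18, adjusted p = 0.954). HOXA10 was at 19.1, 26.9 and 29.1 CPM in control cells and 38.4, 42.5 and 39.8 CPM in knockout libraries (log2 fold change 0.69, SE 0.19, adjusted p = 0.116 without and 6.36e-05 with the block). MEF2C, a myeloid transcription factor, was at 198.7, 137.7 and 142.2 CPM and at 126.9, 89.1 and 88.3 CPM (log2 fold change -0.65, adjusted p = 0.263 without and 3.51e-07 with the block). HOXA10 was higher and MEF2C lower in the knockout library of each replicate number. MEF2C lies on chromosome 5. SOCS2, a feedback inhibitor of cytokine signalling, and HOXA13 passed in neither fit, with log2 fold changes of 0.24 and -0.43.

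HOXC10 was the only HOX gene of the 9 tested at 2 CPM that passed without the block, where 4.75% of all genes did. Its neighbours HOXC9 and HOXC8 were at 0.778 and 0.404 CPM on average in knockout cells and 0.0263 and 0.00989 CPM in control cells, and passed with the block (adjusted p = 0.00798 and 0.0361) but not without it (0.0829 and 0.0818). HOXA7 was the HOX gene lowered with the block, from 9.23 to 5.15 CPM on average. The other 25 of 39 HOX genes did not reach 0.25 CPM in 2 libraries.

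Myeloid markers rose in part. MPO, the myeloperoxidase of neutrophil granules, was at 20.7, 22.9 and 25.9 CPM in control cells and 117.8, 133.3 and 176.5 CPM in knockout libraries (log2 fold change 2.62, SE 0.22, adjusted p = 0.00182). CEBPE, a transcription factor of late granulocyte maturation, rose from 2.94, 4.04 and 10.1 CPM to 34.5, 30.6 and 47.2 CPM. CXCR2, the neutrophil chemokine receptor, fell from 14.1, 23 and 24.3 CPM to 6.33, 6.56 and 5.93 CPM (log2 fold change -1.70, SE 0.24, adjusted p = 0.00967). The groups did not overlap in any of these, and markers of the same lineage moved in opposite directions. Over the granulocyte list, 2 of 10 tested rose and 1 fell, where 3.5% of all genes rose and 1.25% fell. With the block 6 rose and 1 fell, where 18.9% and 17% of all genes did. The list's median log2 fold change was 0.67. SLPI, a protease inhibitor of granules, was the block's largest addition, at 75.2, 13.8 and 31.7 CPM in control cells and 692.2, 100.6 and 229.6 CPM in knockout libraries (adjusted p = 0.126 without and 3.62e-14 with the block). Its libraries differed by replicate number in both arms, and the knockout library was higher within each number. The granule genes ELANE, AZU1 and PRTN3 did not reach 0.25 CPM in 2 libraries.

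Of 13 monocyte and macrophage markers tested, 2 rose and none fell, or 6 and 3 with the block. Of all genes, 3.5% rose and 1.25% fell, or 18.9% and 17% with the block. LGALS3, the galectin-3 gene, rose from 2.05, 3.20 and 2.57 CPM to 18.8, 23.2 and 28.1 CPM (log2 fold change 3.17, adjusted p = 0.00129). CSF1R, the M-CSF receptor, rose from 1.1, 0.930 and 0.988 CPM to 3.23, 2.61 and 3.00 CPM although it lies on chromosome 5. VCAN, a proteoglycan gene of monocytes, was raised among genes under 2 CPM, from 0.129 to 2.11 CPM on average. LYZ, which codes for lysozyme, was at 573.1 CPM on average in control and 1397 CPM in knockout cells (adjusted p = 0.107 without and 2.43e-11 with the block). CCR2, MS4A7 and IRF8 were lowered with the block, and CD14 was under 1 CPM on average in both groups.

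Among erythroid genes 3 globins and NFE2 rose. HBB, the adult beta globin, was at 0.949, 0.971 and 1.30 CPM in control cells and 31.8, 29.4 and 38.1 CPM in knockout libraries (log2 fold change 4.95, SE 0.22, adjusted p = 0.000207). HBA2 was at 0.988 ± 0.229 and 22.1 ± 3.56 CPM, and HBA1, its near-identical copy between which reads may be split, at 0.322 ± 0.00526 and 4.54 ± 0.796 CPM. NFE2, a transcription factor of erythroid cells, megakaryocytes and myeloid precursors, rose from 21.3, 27.7 and 36.3 CPM to 74.1, 66.9 and 110.8 CPM (adjusted p = 0.0264). These were 4 of the 5 list members tested, where 3.5% of all genes tested were raised. The 3 globins reached 2 CPM in knockout libraries only, so they had to be higher there to be tested. The summed level of the list was 36.2 to 54.5 CPM in control cells and 133 to 196 CPM in knockout libraries. Of the 21 list members, 13 did not reach 0.25 CPM in 2 libraries, among them GATA1, KLF1 and ALAS2, which define erythroid cells. The fetal globins HBG1 and HBG2 were at 0.106 and 0.0994 CPM in control cells and 0.357 and 0.471 CPM in knockout cells and did not pass. In cells given the inhibitor for 96 h the order turned, with HBB at 47.5, 93.1 and 52.3 CPM in control cells and 2.27, 15.9 and 3.87 CPM in knockout libraries (log2 fold change -3.56, adjusted p = 0.00541, fit of all 24 MOLM13 libraries). After a further 48 h without inhibitor HBB was again higher in knockout libraries (2.30), and after 96 h without it was lower (-2.90). The part of RNA from other cells in the globin counts was not tested.

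Markers of stem and progenitor cells and of lymphoid cells moved singly. MLLT3 was the stem and progenitor marker of 7 tested that rose, from 2.34, 3.76 and 2.96 CPM to 13.2, 14.1 and 14.0 CPM (log2 fold change 2.19, adjusted p = 0.00333). MLL-AF9 transcripts end in MLLT3, so 3′ reads of the fusion and of MLLT3 cannot be told apart. With the block, SOX4 also rose and LMO2, MSI2 and NPDC1 fell, and the list's median log2 fold change was -0.276. The block raised 18.9% and lowered 17% of all genes, and without it 3.5% rose and 1.25% fell. NCAM1, the adhesion molecule CD56, rose from 9.69 ± 1.01 to 21.3 ± 2.69 CPM and was 1 of 4 lymphoid markers tested at 2 CPM. PAX5, the B-lineage factor, rose among genes under 2 CPM, from 0.0198 to 1.1 CPM on average.

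Some targets of p53 fell in knockout cells. Of 20 tested, EDA2R and RRM2B fell without the block, none rose and 18 did not pass. Of all genes 1.25% fell and 3.5% rose without the block. With the block 11 fell and none rose, where 17% of all genes were lowered. The median log2 fold change was -0.56, and 3 members had a value above 0. CDKN1A, the cell cycle inhibitor p21, was at 120.9, 127.6 and 118.8 CPM in control cells and 84.0, 78.8 and 80.0 CPM in knockout libraries (log2 fold change -0.60, SE 0.16, adjusted p = 0.102 without and 2.91e-06 with the block). MDM2, which marks p53 for degradation, was at 38.9, 32.4 and 34.3 CPM and at 25, 23 and 23.9 CPM (adjusted p = 0.089 and 0.000211). Each knockout library lay below each control library in both genes. RRM2B, a ribonucleotide reductase subunit, fell from 32.2, 44.5 and 34.3 CPM to 19.8, 22.4 and 20.3 CPM (log2 fold change -0.83, adjusted p = 0.0436), and EDA2R, a receptor of the TNF receptor family, from 3.34 ± 0.652 to 0.876 ± 0.184 CPM. GADD45A, SESN1, ZMAT3, FDXR, DDB2, XPC and TNFRSF10B were the others lowered with the block. RRM2B and TNFRSF10B lie on chromosome 8, and without the list's 3 members on that chromosome 9 of 17 fell with the block. The summed level of the list was 567 to 629 CPM in control cells and 410 to 452 CPM in knockout libraries.

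Cell cycle and growth genes showed small shifts around a few large changes. Of all genes 3.5% rose and 1.25% fell without the block. CCND2, cyclin D2, rose from 4.21, 5.42 and 5.10 CPM to 13.1, 12.2 and 13.8 CPM (log2 fold change 1.41, SE 0.18, adjusted p = 0.00725). It was the member raised of 11 cyclins, CDKs and CDK inhibitors tested, and with the block 5 rose, CCND3 among them, and 3 fell, among them CCND1 and CDK6. Of 20 proliferation genes none passed without the block, 4 rose and 3 fell with it (18.9% and 17% of all genes did), and the median log2 fold change was 0.0686. LIN28B, a repressor of let-7 microRNA maturation, rose from 0.237, 0.121 and 0.119 CPM to 7.78, 8.73 and 8.53 CPM (log2 fold change 5.64, SE 0.35, adjusted p = 0.000591), and was 1 of 7 tested in the insulin-like growth factor list. Of 14 BCL2 family genes none passed, and with the block BIK rose and BCL2 fell.

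The counts of the next lists stand beside 3.5% of all genes raised and 1.25% lowered, or 18.9% and 17% with the block. Among 13 genes of cytokine signalling and its feedback, 3 rose and none fell, or 5 and none with the block. PIM1, a kinase induced by STAT signals, rose from 6.69 ± 0.475 to 14.6 ± 1.43 CPM, SOCS6 from 1.28 ± 0.196 to 3.74 ± 0.575 CPM, and CSF1R as given above. CISH and SOCS1 rose with the block. Of 12 replication-independent histone genes, 3 rose, H2AJ and H1-10 among them, and none fell, and 6 rose and 1 fell with the block. H1-10, a linker histone variant, was at 19.1, 10.8 and 20.4 CPM in control cells and 55.3, 43.5 and 76.9 CPM in knockout libraries (log2 fold change 1.80, adjusted p = 0.0236). Of 17 integrins and adhesion molecules, ICAM1 rose from 0.229 ± 0.134 to 3.03 ± 0.361 CPM, and 7 rose and 4 fell with the block. Of 7 interferon response genes none passed, and with the block 2 rose and 1 fell. The single MHC class II gene tested, the invariant chain gene CD74 on chromosome 5, was at 490.1, 588.9 and 779.9 CPM in control cells and 234.9, 257 and 339.5 CPM in knockout libraries (adjusted p = 0.0722 without and 7.17e-11 with the block). In the plot of the lists at most 5 members of a list passed without the block.

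**Figure D3:**
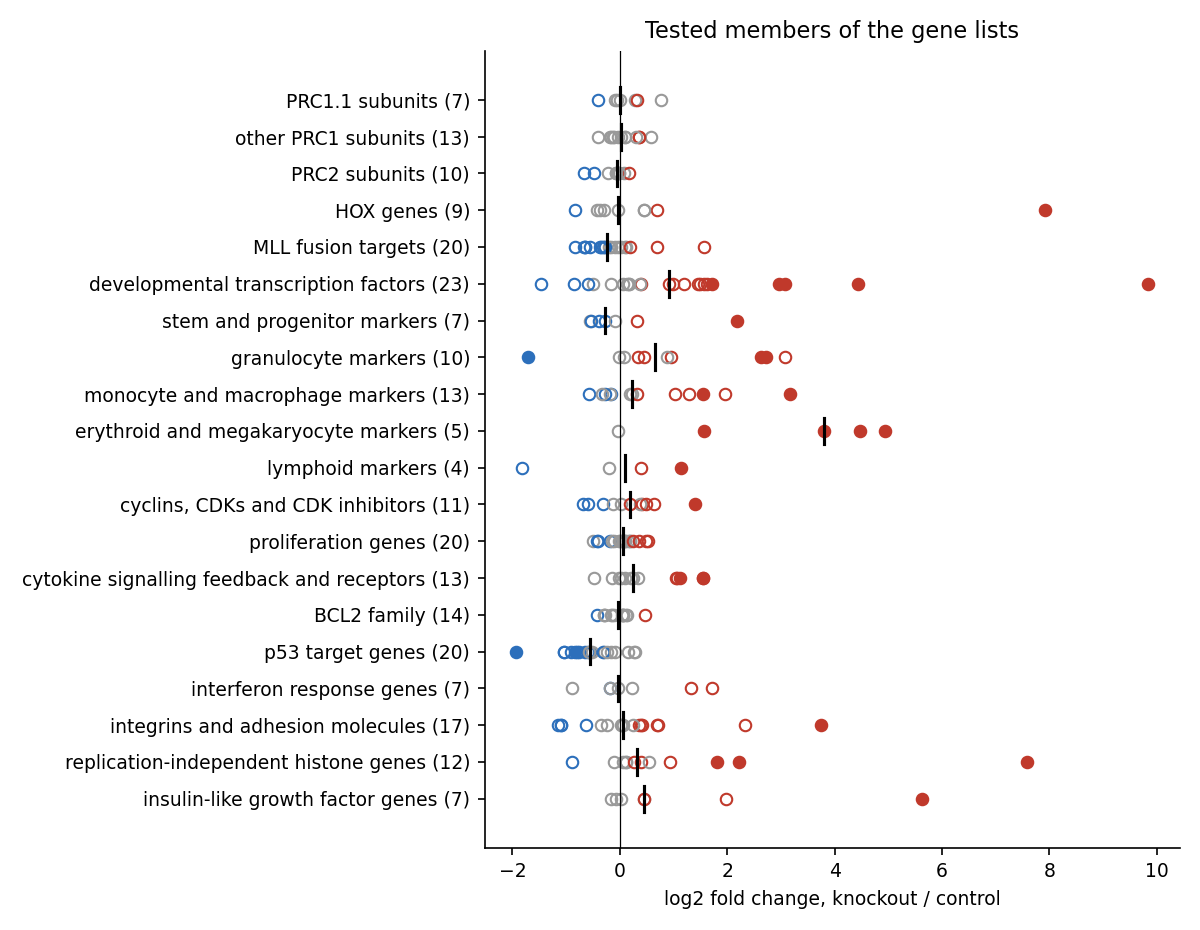
Log2 fold change of knockout over control for each tested member of the gene lists at 2 CPM, with the number tested in brackets and a black bar at the list's median. Filled points passed without the block, open coloured points with the block only, and grey points in neither, and the MHC class II list with 1 member is left out.

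Most genes of chromosomes 5 and 8 had lower values in knockout cells, with 76.3% and 80.1% of their log2 fold changes below 0. The median log2 fold change was -0.372 over the 435 tested genes of chromosome 5 and -0.354 over the 331 of chromosome 8. The medians of the other autosomes and X ran from -0.0771 on chromosome 18 to 0.0737 on chromosome 19. The shift was present in each same-numbered pair of libraries, at -0.352, -0.322 and -0.346 for chromosome 5 and -0.324, -0.282 and -0.333 for chromosome 8. It was also present in cells given VTP50469 for 96 h, at -0.325 and -0.346 for the same chromosomes. After 48 h without the inhibitor the medians were -0.312 and -0.300. After 96 h without it they were smaller, at -0.171 and -0.156, where the median over all genes tested in both fits was 0.0934. In the separate experiment with single knockouts, the medians on these chromosomes were -0.0281 and -0.0446 in PCGF1 KO cells and -0.0193 and -0.0218 in libraries labelled BCOR KO. When the tested genes of each chromosome were divided in order into 3 parts, the medians of the blocked fit were -0.109, -0.418 and -0.432 along chromosome 5 and -0.376, -0.352 and -0.271 along chromosome 8. Of the 117 lowered genes placed on a chromosome, 17 lay on chromosome 5 and 15 on chromosome 8 (3.91% and 4.53% of their tested genes against 1.22% of all placed). With the block 51% of the tested genes of chromosome 5 and 51.4% of those of chromosome 8 were lowered, against 14% elsewhere. Outside both chromosomes 315 genes were raised and 85 lowered without the block. DNA copy number was not measured in these libraries, and its part in these values was not tested.

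The genes called in DMSO were then read in libraries that had not been used to call them. In the same populations given 500 nM VTP50469 for 96 h, 301 of the 348 raised genes (86.5%) were higher and 110 of the 124 lowered genes (88.7%) were lower in knockout cells, where 46.1% of all genes tested in both fits were higher and 53.8% lower. After 48 h without the inhibitor these counts were 311 (89.4%) and 111 (89.5%), where 49.4% of all genes were higher and 50.5% lower. After 96 h without it they were 325 (93.4%) and 111 (89.5%), where 56.4% were higher and 43.6% lower. These libraries come from the same edited populations and are shallower. At 96 h 60 of the raised and 12 of the lowered genes passed again, in a fit where 0.573% of genes were raised and 0.22% lowered. After 48 h without the inhibitor 83 and 21 did (0.934% and 0.44% of genes), and after 96 h without it 91 and 22 did (0.918% and 0.44%). Of the raised genes 3 passed as lowered at 96 h and 3 after 96 h without the inhibitor. SP9, MDK, MYO6 and RAB34 kept log2 fold changes of 7.83, 3.56, 6.39 and 4.34 at 96 h, and each passed there. MPO was higher in knockout cells in the 3 inhibitor conditions by 1.59, 1.78 and 1.91 on the log2 scale (adjusted p = 0.021, 0.00705 and 0.00304). UBB, lowered in DMSO, was close to equal at 96 h (-0.04, adjusted p = 0.999) and lower again after 96 h without the inhibitor (-3.11, adjusted p = 0.00234).

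Single knockouts were read from another experiment, with 3 libraries each of PCGF1 KO, BCOR KO and control cells in DMSO, made from other populations and at 4377206 to 6196482 counts. Over all genes of that table, 8.33% were raised and 5.43% lowered in PCGF1 KO libraries, and 4.05% and 2.99% in BCOR KO libraries. Both single knockouts share their control libraries and are given side by side. In libraries labelled BCOR KO the BCOR level was higher than in control (105 and 52.1 CPM on average), and such 3′ reads do not check the editing. Of the 348 raised genes, 307 were tested there. In PCGF1 KO cells 271 of these (88.3%) were higher than control and 193 passed as raised and 3 as lowered, with a median log2 fold change of 0.972, where 46.5% of the shared genes were higher and 7.62% were raised. In libraries labelled BCOR KO 213 (69.4%) were higher and 87 passed as raised and 18 as lowered, with a median of 0.309, where 48% were higher and 4.02% were raised. The median of the same genes in the double knockout was 2.12, the fold by which they had been chosen, so the sizes are not set against each other by a test. Of the 124 lowered genes, 108 were tested there, and 88 were lower in PCGF1 KO and 85 in BCOR KO libraries. Of these 108 genes, 43 and 24 passed as lowered, and 3 and 4 passed as raised. Among the shared genes 53.5% and 51.9% were lower, and 5.72% and 3.09% passed as lowered.

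Named genes differed in how the single knockouts stood. SP9 was at 0.301, 21 and 13.3 CPM on average in the control, PCGF1 KO and BCOR KO libraries of that experiment, and MYO6 at 7.16, 66.8 and 80.2 CPM. NR2F1 was at 0.808, 193 and 57.3 CPM there, above its 3.58 CPM in the double knockout. H2AJ was at 0.172, 10.1 and 11.9 CPM, and CCND2 at 24.8, 199 and 130 CPM. TIAM1 was at 0.0543, 7.29 and 0.238 CPM and HOXC10 at 0, 3.48 and 0 CPM, so both were measured in PCGF1 KO libraries and were near or at 0 in BCOR KO libraries. MPO was higher than control in PCGF1 KO libraries (log2 fold change 0.60, adjusted p = 0.000701) and lower in BCOR KO libraries (-1.12, adjusted p = 1.23e-06). RAB34 was at 46.5, 59.9 and 55.2 CPM, so its control level there was above the 5.11 CPM of the deep control libraries. LIN28B had no count in any of these 9 libraries, and NRIP1 was at 0.629 CPM or less on average in each group.

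CXCR2 was lower in both single knockouts (log2 fold changes -1.36 and -1.21), as was IL32 (-2.72 and -2.25) and CARD9 (-0.83 and -0.77), and each of these passed. TNNI3 and EPS8L2, lowered in the double knockout, were raised in PCGF1 KO cells (1.33 and 1.63). The globins HBB, HBA1 and HBA2 had no count in any of these 9 libraries. In the plot of the other comparisons the raised genes have medians above 0 and the lowered genes medians below 0 in each comparison.

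**Figure D4:**
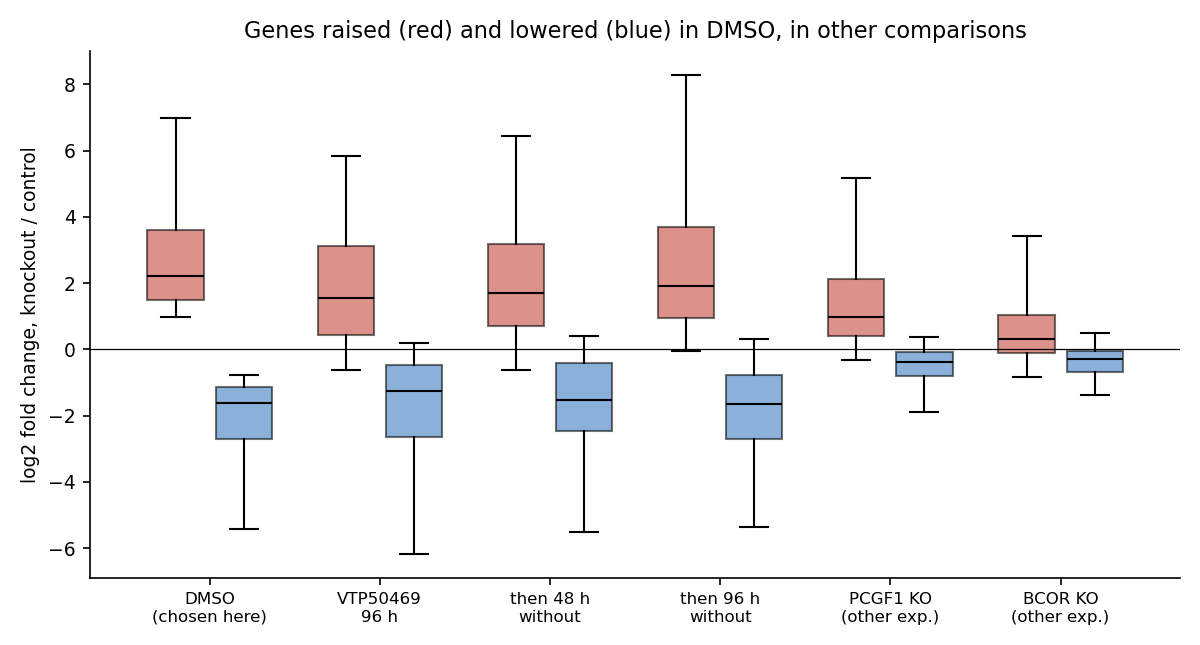
Log2 fold change of knockout over control for the genes raised (red) and lowered (blue) in DMSO, in the deep DMSO libraries that chose them, in the 3 inhibitor conditions of the same populations and in the single knockouts of the other experiment. Boxes span the quartiles with the median as a line and whiskers run from the 5th to the 95th percentile, and the medians of raised genes are 2.22, 1.54, 1.72, 1.91, 0.972 and 0.309 from left to right.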

How the data were processed

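The deposited table holds counts of reads per gene, which the authors made from 3′ RNA-seq of MOLM13 cells with STAR against GRCh38. Per the labels, bcl2fastq, STAR and DESeq2 were used. Counts of replicate libraries were kept apart, although the study's method pools indexed samples before the cDNA is amplified. Use of molecular identifiers is not given in the sources used here, so floors cover counting error only. The study describes replicates of the washout experiment as biological, and whether they were separate cultures is not given in the sources used here, so p-values measure the spread between these libraries. Genes that reached 2 CPM in 2 or more of the 6 libraries were tested with the quasi-likelihood test of edgeR 4.0.16 in R 4.3.3, after TMM scaling, at a Benjamini-Hochberg adjusted p of 0.05. Reads without a gene were left out (at most 41 in a library). CPM values use TMM-scaled totals, and a value of 0 allows up to 0.0346 CPM over the control and 0.0262 CPM over the knockout group (3 counts). Deviations from the group means correlated at 0.827, 0.831 and 0.708 for same-numbered libraries and at -0.223 or less for others, so the numbers were taken to pair the libraries, and blocked values are given beside results. Other conditions and single knockouts were fitted with all 24 or 27 libraries of their tables. Alternatives were DESeq2 1.42.0, other filters and scalings, and each library left out. In simulated counts for 9935 genes of this comparison, 96 of 100 genes changed 8-fold and 8 of 100 changed 2-fold were recovered, with 4 false calls. The simulated libraries were drawn independently, without the pairing by replicate number, and were fitted without the block. These values therefore do not describe the paired libraries or the blocked fit. The members and gene lists were chosen with earlier results of these data known. Named genes were the PRC1.1 subunits, the 5 genes the study names in untreated cells, the 10 largest rises and falls with at least 10 CPM in the higher group and no overlap, up to 4 called members of each list, and 5 genes each way with 3 or fewer counts in a group; TFAP2A, TBX3, genes added from the blocked fit and list members that did not pass were chosen after their values were seen. Gene positions and promoters came from GENCODE v44 and hg38. In the table, 8 columns of K562 cells were not used.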

Additional observations from a re-analysis of the deposited data

Results flagged for a closer look

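Among the named genes, the difference between knockout and control cells itself differed between DMSO and an inhibitor condition in 8 cases (edgeR quasi-likelihood test of the difference in the fit of 24 libraries, adjusted p under 0.05, added after the data were seen). Of all 12741 genes in that fit, 7 passed at 96 h, 2 after a further 48 h without inhibitor and 11 after 96 h without. HBB and UBB were named for the size of their change in DMSO, which enters this difference. For the globins the knockout effect after 96 h of VTP50469 minus that in DMSO was -8.47 for HBB, -7.3 for HBA2 and -6.52 for HBA1 on the log2 scale. After 96 h of inhibitor and 96 h without, it was -7.81 for HBB, -7.54 for HBA2 and -6.39 for HBA1. For MEIS1 the effect after 96 h of inhibitor and 96 h without was 7.35 above that in DMSO. For UBB the effect at 96 h was 5.38 above that in DMSO.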

How the results depend on the processing

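The count of 472 genes stayed within 1.5 times with library totals, either lower filter, the study's limits or genes outside chromosomes 5 and 8. It was 155 in the fit of all 24 libraries, 793 with DESeq2 and 3574 with the replicate block. Leaving out 1 library gave 243 (without knockout replicate 3) to 321 genes, and 261, 268 and 309 without knockout replicate 2, control replicate 2 and control replicate 3. The 60 genes under 2 CPM became 242 with DESeq2, 277 with the replicate block and 12 to 30 without 1 library, with 12, 15, 21, 25, 27 and 30 without knockout replicates 2, 3 and 1 and control replicates 2, 1 and 3. The share of calls raised was 73.7%, and 52.6% with the block. Of 52 called genes named at 2 CPM, 37 passed with all 24 libraries, 49 with library totals, 56 of all named with the block, and 35 to 42 without 1 library. Without any 1 library the calls of CSF1R, RRM2B, SOCS6 and PAX5 were lost. Those of CEBPE, EDA2R, H1-10, H2BC9, HMX2, HMX3, NCAM1, NFE2, NR2F1, PIM1, PRG2 and VCAN were lost without at least 2 of the 6 libraries, and those of CXCR2 and TNNI3 without knockout replicate 3 (adjusted p = 0.0536 and 0.0534, edgeR). PAX6, C5orf63, CGREF1 and COL8A2 each passed in 4 of the 6 cases with 1 library left out, and fell under the 2 CPM minimum in the rest. No called gene named by the rule changed direction. TFAP2A and TBX3 were named beyond it, and both lost their calls with 24 libraries (adjusted p = 0.32 and 0.76), as did TBX3 without 1 library in 5 of 6 cases. Uncalled genes near 0 did. KDM2B turned to -0.0121 with 24 libraries and -0.00061 with the replicate block. Without 1 library KDM2B ran from -0.0766 to 0.0732, MEIS1 from -0.193 to 0.0638, USP7 from -0.121 to 0.0285, YAF2 from -0.363 to 0.299 and PCGF1 from -0.797 to 0.263. The cause of these moves was not tested. Depth limits genes under about 2 CPM.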

Other observations

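H4C3, a histone H4 gene, differed widely between replicates, and it was singled out after its values were seen. It was at 3479, 31.9 and 716.7 CPM in control and 7.36, 0.195 and 3.00 CPM in knockout libraries (log2 fold change -8.64, adjusted p = 0.0772 without and 1.02e-15 with the block).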
